A study of Mus musculus with 8 samples.

Results

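The genes that make microRNAs and load them into silencing complexes were followed from B16F0 mouse melanoma cells into the vesicles these cells release. The set held 10 genes, namely Drosha, Dgcr8, Xpo5, Dicer1, Ago1, Ago2, Ago3, Ago4, Tnrc6a and Tnrc6b, out of 14860 genes whose transcript cluster (the group of probes that reports 1 gene) carried a single symbol. Members were taken by symbol, and a gene with more than 1 cluster was read from the brightest, by its mean over the 8 arrays. Only Tnrc6b had 2 clusters.

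B16F0 is a pigmented melanoma line that arose in a C57BL/6 mouse, and exosomes are small membrane vesicles that cells shed into the medium. One group was the parental B16F0 cells after 24 h of culture in serum-free medium, and the other was exosomes from serum-free medium that such cells had conditioned for 24 h, with 4 samples in each group and 1 exon array per sample. Both groups came from this 1 line, with no added treatment or engineered allele named in the labels, and whether the 4 samples per group were grown as separate cultures is not in the labels, so a p-value reflects only the variation among these samples, possibly a technical one. Total RNA was hybridised in equal cDNA mass per array, so a value is a share of the RNA on the array. A lower value in exosomes cannot distinguish fewer vesicles that carry a transcript from less of it per vesicle.

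A microRNA begins as a hairpin within a longer nuclear transcript. The nuclease Drosha, held by its RNA-binding partner Dgcr8, cuts the hairpin free at its base, and Exportin-5, encoded by Xpo5, carries it into the cytoplasm. There Dicer1 removes the loop, 1 strand of the duplex is bound by an Argonaute protein, and GW182 proteins, such as those encoded by Tnrc6a and Tnrc6b, bind Argonaute and recruit the enzymes that shorten and silence the target mRNA. Ago2 is the Argonaute that can itself cut a fully matched target. The arrays measured the mRNAs of this machinery, and no microRNA was measured.

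The let-7a hairpin and its mature strand are shown to make these steps visible, because the let-7 family is the textbook substrate of each enzyme described here. Both sequences are from RefSeq on GRCm38.p6, where the hairpin lies at chr13:48538179-48538272 on the minus strand. In the hairpin, capitals mark the mature strand that remains after Drosha and Dicer1 have cut. In the mature strand, capitals mark the seed, bases 2 to 8, with which Argonaute finds its targets.
Mirlet7a-1: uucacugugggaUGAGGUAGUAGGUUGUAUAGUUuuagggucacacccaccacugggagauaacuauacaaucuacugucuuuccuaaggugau
mmu-let-7a-5p: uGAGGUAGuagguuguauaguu

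The deposited log2 values of the arrays were not on a common distribution. The 75th percentile of an array ran from 8.46 to 8.60 in cells and from 7.06 to 7.19 in exosomes. Background was read from 844 chemosensory receptor genes, which serve sensory neurons, and a gene counted as above background in cells or in exosomes if each of the 4 arrays put it over their 95th percentile. That threshold ran from 5.70 to 5.77 on the cell arrays and from 6.41 to 6.56 on the exosome arrays. All 6 measured pigment cell markers exceeded background in both groups. No measured marker of leukocytes, keratinocytes or endothelium was above background on all 4 arrays of either group, and of 5 fibroblast markers 2 were in cells and 1 in exosomes. Precision is limited by the number of arrays.

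Ago2, Tnrc6b, Dicer1 and Ago1 were higher in exosomes than in cells, whereas Xpo5, Drosha, Dgcr8 and Tnrc6a were lower, and Ago3 and Ago4 did not pass the test. Ago2 was 3.10-fold higher and Xpo5 5.58-fold lower, the outermost values among the 10 genes. Groups were compared with limma, adjusted p-values (Benjamini-Hochberg) covered the whole table of 23332 clusters, and a gene was called at an adjusted p under 0.05. By this test 4 members were called higher, beside 16.4% of all clusters, and 4 lower, beside 42.9% of all clusters. In total 8 of 10 were called, beside 59.3% of all clusters. Among the 14860 genes, the shares were 14.6% higher and 52.1% lower. The median log2 difference of the members was -0.08, beside -0.39 over all genes and -1.16 over the 5181 genes above background in both groups. Of those 5181 genes, 11.3% were called higher and 77.8% lower. For the same 8 members the exosome values did not overlap the cell values, 4 above and 4 below. Over all clusters this held for 56.4%, of which the exosome arrays lay above for 14.4% of clusters and below for 42.0%. Apart from Ago4, each member was above background on all 4 arrays of both groups.

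**Figure D1:**
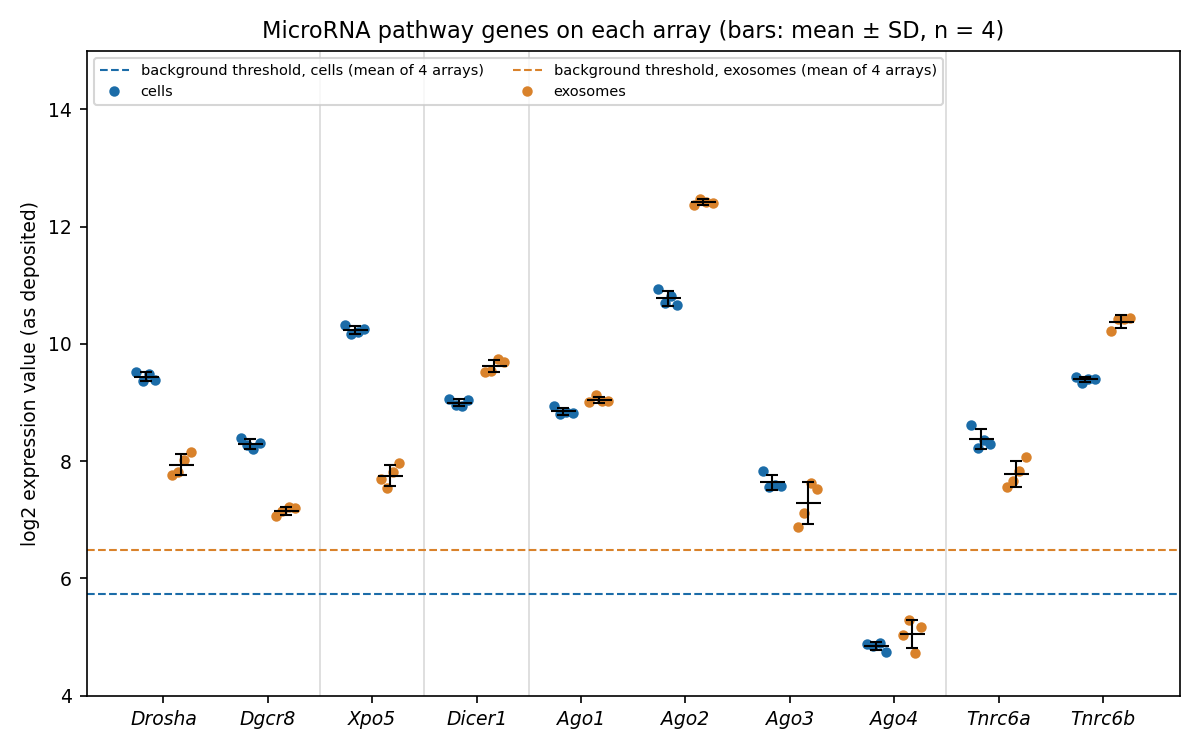
Deposited log2 values of the 10 genes on each array, with cells in blue and exosomes in orange, black bars for the mean ± SD (n = 4) and dashed lines for the mean background threshold of each group. The exosome points of Ago2, Tnrc6b, Dicer1 and Ago1 lie above the cell points, those of Xpo5, Drosha, Dgcr8 and Tnrc6a lie below, and Ago4 lies under both dashed lines.

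The scale between the groups decides some of these directions. The median log2 difference of all clusters was -0.20 on the deposited scale, 0.05 with quantile normalization, 0.03 with cyclic loess and -0.80 when arrays were centred on the background genes. Under these 4 scalings Ago2 and Tnrc6b were called higher each time and Xpo5 was called lower each time. Dicer1 stayed positive and Drosha negative under all 4, but each lost its call under 1 of them. Dgcr8, Tnrc6a, Ago1, Ago3 and Ago4 changed sign under at least 1. The split of called members was 4 higher and 4 lower on the deposited scale, 7 and 2 with quantile normalization, 7 and 1 with cyclic loess, and 2 and 7 when centred on background genes. Over all clusters, 28.4% were called higher and 28.2% lower with quantile normalization, 29.1% and 27.8% with cyclic loess, and 4.54% and 71.5% when centred on background genes.

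**Figure D2:**
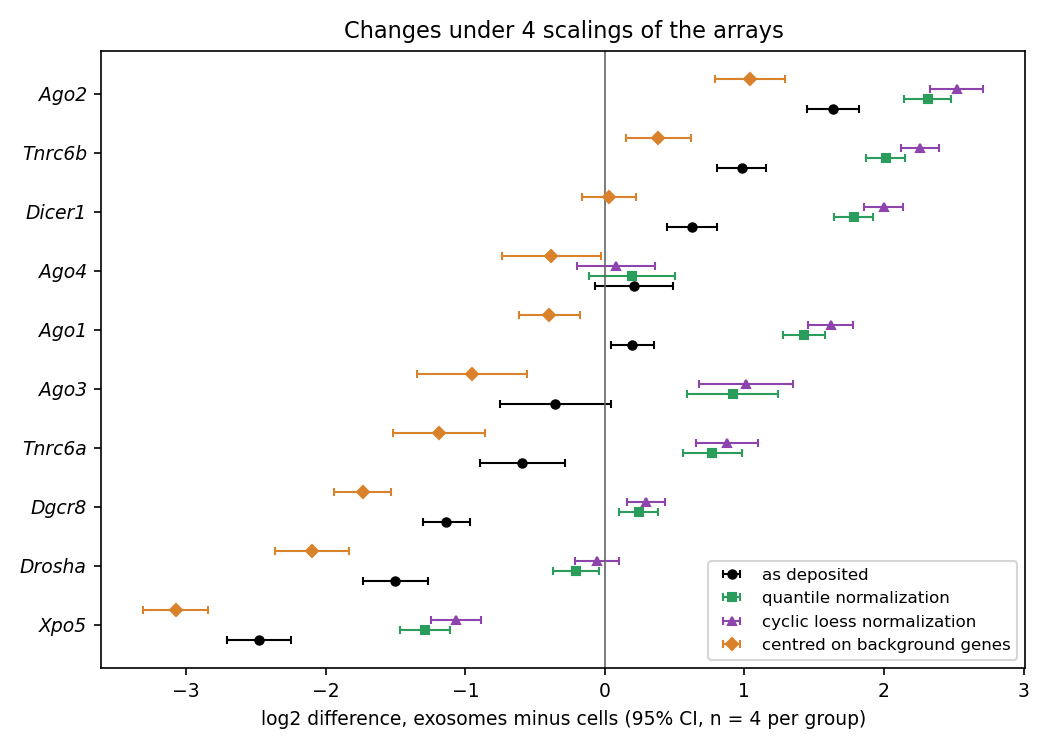
Log2 difference between exosomes and cells for each gene (points, with 95% confidence intervals, n = 4 arrays per group) under 4 scalings of the arrays. Ago2 and Tnrc6b lie to the right of 0 and Xpo5 to the left under each scaling, while Dgcr8 runs from -1.73 to 0.29.

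Both microprocessor genes were lower in exosomes. Drosha, the nuclease that starts the pathway, had log2 values of 9.53, 9.37, 9.49 and 9.38 on the cell arrays and 7.77, 7.82, 8.02 and 8.15 on the exosome arrays. All 4 exosome values lay below the cell values, and the spread between exosome arrays (SD 0.18) was larger than that between cell arrays (0.08). The level fell 2.83-fold (log2 difference -1.50 ± 0.10 SE with 4 arrays in each group, limma adjusted p = 1.97e-06), and it stayed negative but was not called after cyclic loess (-0.05, adjusted p = 0.533). Dgcr8, which encodes the double-stranded RNA-binding partner of Drosha, had values of 8.40, 8.27, 8.20 and 8.31 in cells and 7.06, 7.15, 7.21 and 7.20 in exosomes. These groups did not overlap either, and within each group the arrays lay within 0.20 of each other. Dgcr8 fell 2.20-fold as deposited (-1.14 ± 0.07 SE, adjusted p = 1.39e-06), but its difference was positive after quantile normalization (0.24) and after cyclic loess (0.29), and called in both. Genes whose cell level lay within 0.25 of that of Drosha had a median log2 difference of -1.79, and those around Dgcr8 one of -1.51, so both members fell somewhat less than the median of genes of like cell level.

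Xpo5 had the largest fall of the members. This gene encodes the nuclear transport receptor that takes precursor hairpins through the nuclear pore. Its values were 10.32, 10.17, 10.20 and 10.25 in cells and 7.70, 7.54, 7.81 and 7.97 in exosomes. The distance between the groups was many times the spread within either (SD 0.07 in cells and 0.18 in exosomes). Xpo5 fell 5.58-fold (log2 difference -2.48 ± 0.10 SE, limma adjusted p = 1.09e-07), and across the scalings the difference ran from -3.08 to -1.06 and was called lower in each. Genes within 0.25 of its cell level had a median of -1.71 with quartiles of -2.41 and -0.82, so Xpo5 lay just below the lower quartile. It ranked 1218th from the lowest of all 14860 genes.

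Dicer1, the cytoplasmic nuclease that follows export, went the other way. It gave 9.06, 8.95, 8.94 and 9.04 in cells and 9.52, 9.54, 9.74 and 9.70 in exosomes. Every exosome value exceeded every cell value. Dicer1 rose 1.54-fold (log2 difference 0.62 ± 0.08 SE, limma adjusted p = 0.000127), and this call ended when arrays were centred on background genes (0.03, adjusted p = 0.772). Of the 1065 genes within 0.25 of its cell level, 7.42% were called higher and 87.0% lower, with a median of -1.73.

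The Argonaute genes did not change alike. Ago2 had values of 10.94, 10.69, 10.82 and 10.67 in cells and 12.36, 12.48, 12.41 and 12.41 in exosomes. No array of one group came near the other group, and the exosome arrays were closer together (SD 0.05) than the cell arrays (SD 0.13). Ago2 rose 3.10-fold (log2 difference 1.63 ± 0.08 SE, limma adjusted p = 3.12e-07), and the difference ran from 1.04 to 2.52 across the scalings. It ranked 127th from the highest of 14860 genes. Among 402 genes within 0.25 of its cell level the median was -1.64, and over all genes 99.1% had a lower difference than Ago2.

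Ago1, a close relative without strong cutting activity, gave 8.93, 8.81, 8.83 and 8.82 in cells and 9.00, 9.13, 9.02 and 9.03 in exosomes. The groups did not overlap, but the gap between the highest cell array and the lowest exosome array was small. Ago1 rose 1.15-fold (log2 difference 0.20 ± 0.07 SE, limma adjusted p = 0.0328). The call was lost without cells replicate 2, 3 or 4 or exosomes replicate 2, 3 or 4 (adjusted p from 0.0504 to 0.0837), and with a block for the replicate number (adjusted p = 0.11). Centred on background genes Ago1 was called lower (-0.40, adjusted p = 0.00475).

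Ago3 gave 7.83, 7.56, 7.60 and 7.57 in cells and 6.88, 7.11, 7.63 and 7.52 in exosomes. Exosome replicates 3 and 4 lay among or beside the cell arrays and replicates 1 and 2 lay below them, so the groups overlapped. The difference was -0.35 with a 95% interval of -0.75 to 0.04 (limma adjusted p = 0.11), and without exosomes replicate 3 it was called lower (-0.47, adjusted p = 0.0394). After quantile normalization and cyclic loess Ago3 was called higher (0.92 and 1.01), and when centred on background genes it was called lower (-0.95, adjusted p = 0.000925).

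Ago4 was not above background on any array of either group. It gave 4.87, 4.85, 4.90 and 4.75 in cells and 5.03, 5.28, 4.73 and 5.18 in exosomes, and the groups overlapped. No fold is given for it. In the mouse annotation used for names Ago3, Ago1 and Ago4 lie next to each other on chromosome 4, while Ago2 lies on chromosome 15.

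The GW182 genes moved apart. Tnrc6b had values of 9.44, 9.33, 9.41 and 9.41 in cells and 10.21, 10.43, 10.43 and 10.44 in exosomes. Exosome replicate 1 lay below the other exosome arrays and still above all cell arrays. Tnrc6b rose 1.97-fold (log2 difference 0.98 ± 0.08 SE, limma adjusted p = 5.03e-06), with values from 0.38 to 2.26 across the scalings, called higher in each. Its second cluster also rose, by 1.42-fold (0.50 ± 0.08 SE, adjusted p = 0.00044), so both clusters had the same direction and differed in size. Around the cell level of the first cluster the median of all genes was -1.74, and 86.2% of those genes were called lower.

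Tnrc6a, the paralogue of Tnrc6b, gave 8.61, 8.22, 8.35 and 8.30 in cells and 7.56, 7.66, 7.83 and 8.06 in exosomes. The groups did not overlap, though exosome replicate 4 came close to the lowest cell array. Tnrc6a fell 1.51-fold (log2 difference -0.59 ± 0.13 SE, limma adjusted p = 0.00449), and it was called higher after quantile normalization (0.77) and cyclic loess (0.88). Around its cell level the median of all genes was -1.58, and 81.4% of those genes had a lower difference.

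**Figure D3:**
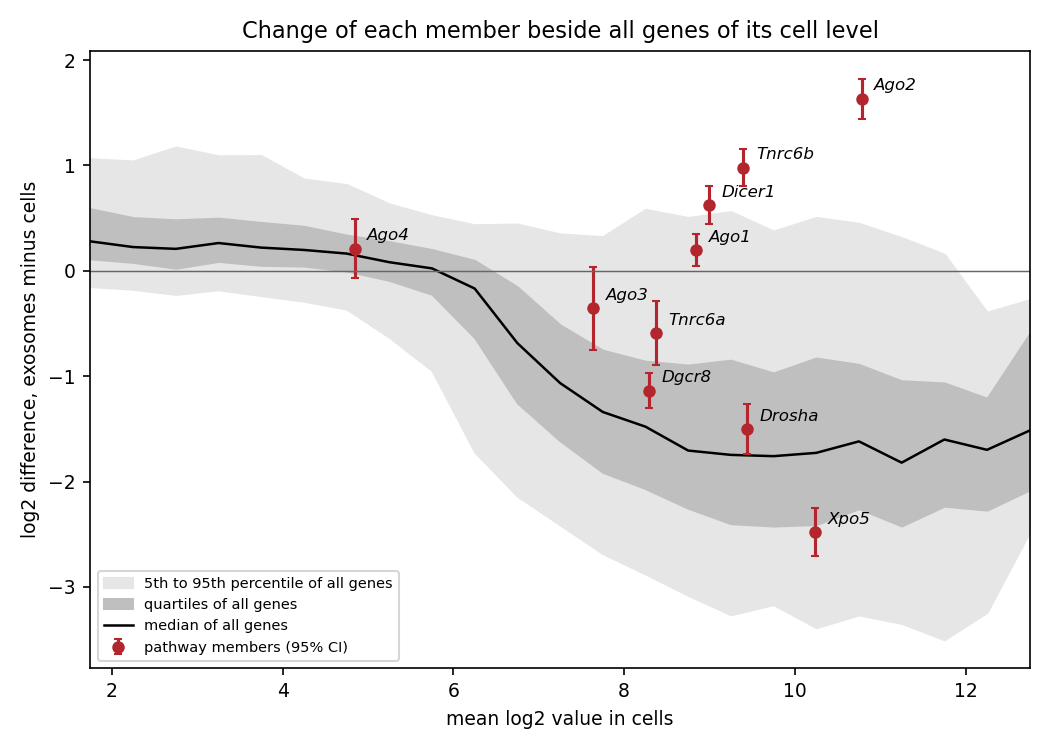
Log2 difference between exosomes and cells against the mean log2 value in cells, with the 10 genes in red (95% confidence intervals, n = 4 arrays per group) over the median, quartiles and 5th to 95th percentiles of all genes in steps of the cell level. Ago2, Tnrc6b and Dicer1 lie above the 95th percentile band, Drosha and Dgcr8 lie within the quartiles, and Xpo5 lies near the lower quartile.

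Differences between members were then tested within arrays, since a shift shared by all genes of an array cancels when the log2 value of 1 gene is subtracted from that of another. This was done for 9 pairs with an exact permutation test (two-sided, 4 arrays against 4, smallest possible p = 0.0286) and Benjamini-Hochberg adjustment over the 9. The 3 pairs with Ago4 set a gene against 1 that was not above background on any array, so they are not read as differences between members. For each of the other 6 pairs the groups did not overlap, with p = 0.0286 and adjusted p = 0.0367 in the exact test. Leaving out 1 array raises the smallest possible p to 0.0571, so no pair could pass there.

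Ago2 rose relative to Ago1 by 2.71-fold. The within-array difference had a mean ± SD of 1.93 ± 0.08 on the 4 cell arrays and 3.37 ± 0.02 on the 4 exosome arrays. Against Ago3 the shift was 3.97-fold, from 3.14 ± 0.06 to 5.13 ± 0.35. Ago1 rose relative to Ago3 by 1.47-fold, with differences of 1.10 to 1.25 in cells and 1.39 to 2.12 in exosomes.

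Dicer1 rose relative to Drosha by 4.37-fold. On the cell arrays Dicer1 minus Drosha ran from -0.55 to -0.34, and on the exosome arrays from 1.55 to 1.76. Tnrc6b rose relative to Tnrc6a by 2.97-fold, from 1.03 ± 0.13 in cells to 2.60 ± 0.16 in exosomes. The microprocessor pair was closer together: Drosha minus Dgcr8 went from 1.15 ± 0.10 to 0.78 ± 0.13, a 1.29-fold shift. These 6 pairs kept their direction and passed after quantile normalization, after cyclic loess and in limma on the same within-array values. Their sizes depended on the scaling. The shift of Ago2 minus Ago1 was 1.44 as deposited, 0.89 after quantile normalization and 0.90 after cyclic loess. That of Ago2 minus Ago3 was 1.99, 1.40 and 1.51, while that of Drosha minus Dgcr8 was -0.36, -0.45 and -0.35.

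**Figure D4:**
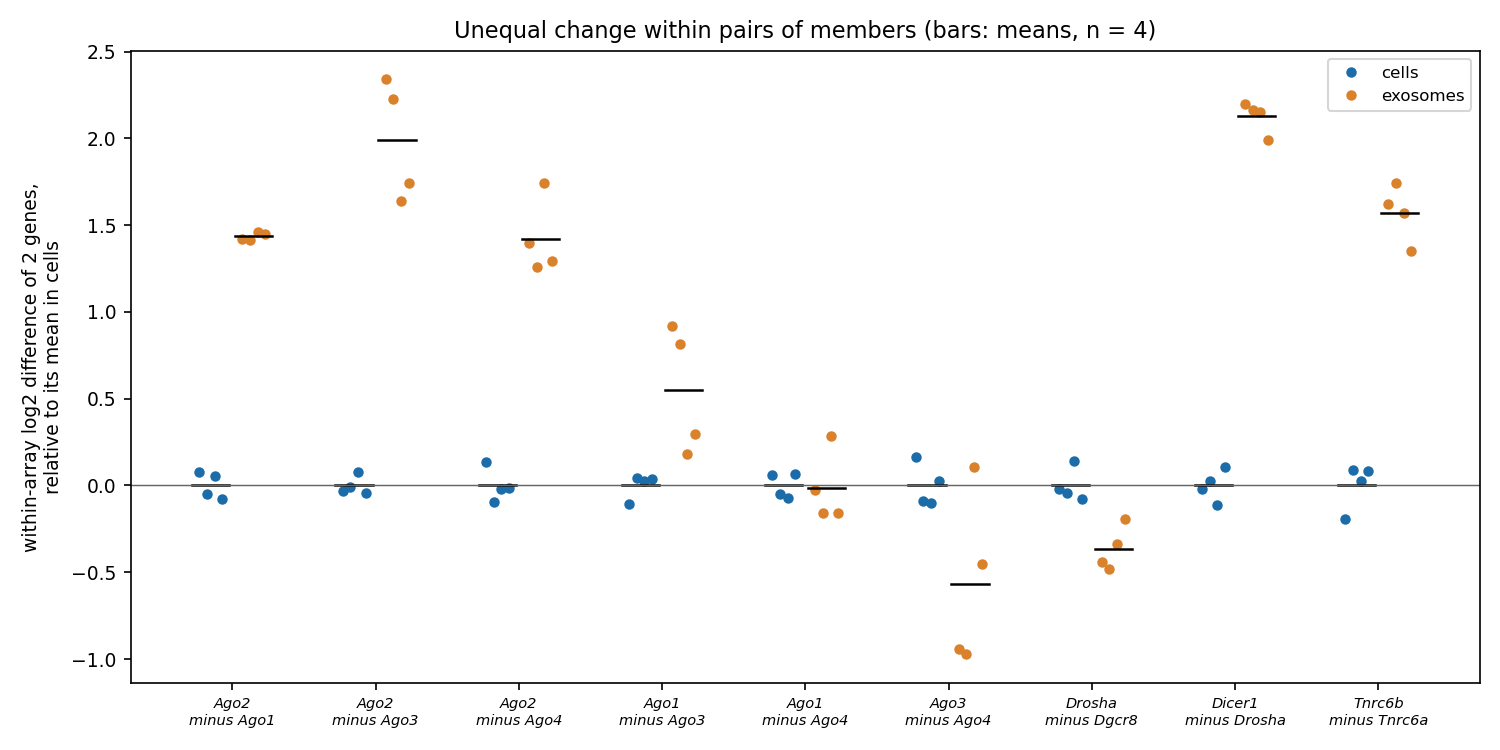
Within-array log2 difference of 2 genes for 9 pairs, set relative to the mean of the cell arrays, with cells in blue, exosomes in orange and bars for the means (n = 4 arrays per group). The exosome points of Dicer1 minus Drosha and of Ago2 minus Ago1 cluster tightly, at mean shifts of 2.13 and 1.44. The 3 pairs with Ago4 are drawn for completeness, since Ago4 was not above background.

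The rest of the pathway was read from a list of 43 genes, of which 34 had a cluster of a single symbol. Of these, 22 were called lower and 4 higher, and 8 did not pass the test. Over all clusters 42.9% were lower and 16.4% higher, and over the 5181 genes above background in both groups 77.8% were lower and 11.3% higher. The median log2 difference of the list was -1.42, beside -0.39 over all genes and -1.16 over those above background in both groups. The list also held genes not above background in both groups, so its share of falls and that of the 5181 genes cover unlike sets. Background was exceeded by 28 of the 34 on each cell array and by 22 on each exosome array. Among the called genes of the list, 15.4% were higher on the deposited scale, 31.0% with quantile normalization, 34.5% with cyclic loess and 9.09% when centred on background genes. The same shares over all called clusters were 27.6%, 50.2%, 51.2% and 5.98%.

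Partners of the microprocessor and of the RNA cap fell in 5 of 5 measured cases, with a median of -1.91. Of genes within 0.25 of the cell level of each, 86.6% to 91.4% were called lower, so this count is near what genes of their level show. The median is the value of Ncbp2, which was above background on no exosome array and was at least 3.09-fold lower against the exosome threshold. Khsrp was not called after cyclic loess (-0.03). Ddx5, a helicase bound to Drosha, had the largest fall. It ran from 10.13 to 10.31 in cells and from 6.65 to 7.40 in exosomes, a 9.18-fold fall (log2 difference -3.20 ± 0.17 SE, limma adjusted p = 4.50e-07), and was lower under each scaling. Its smallest margin over the threshold of an exosome array was 0.09. Xpo1, the general exportin of proteins and of some RNAs, was the 1 other export gene measured. It fell 6.86-fold (-2.78 ± 0.12 SE, adjusted p = 1.45e-07), again under each scaling.

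Of 4 measured genes in the group of Dicer1 partners, 2 were called lower, 1 was called higher and 1 was not called. The 2 lower were Prkra and Adar (log2 difference of Adar -1.59, limma adjusted p = 2.58e-07). Among genes of like cell level, 82.8% around Prkra and 87.1% around Adar were called lower. Prkra, a double-stranded RNA-binding protein that joins Dicer1, was above background in cells and on no exosome array, at least 1.82-fold lower against the exosome threshold (measured means 7.36 and 5.16, limma adjusted p = 5.88e-07). Adarb1, an enzyme that edits adenosine to inosine in double-stranded RNA, was called higher (adjusted p = 0.0298 in limma), but by the rule used here it was not above background in exosomes, where 2 of 4 arrays exceeded the threshold. It ran from 6.07 to 6.28 in cells and from 6.26 to 6.69 in exosomes, so the groups overlapped, and no fold is given. Its difference was negative when arrays were centred on background genes (-0.26). Tarbp2, the other Dicer1-binding protein of the list, had a difference of -0.10 with an interval of -0.39 to 0.19, and was chosen for mention after its values were seen. It was called higher after quantile normalization (1.04) and cyclic loess (1.26) and lower when centred on background genes (-0.70).

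Argonaute partners held 3 of the 4 rises of the whole list. Wtip, Limd1 and Ajuba encode related LIM-domain proteins that bind Argonaute and GW182 proteins in human cells, and the latter 2 are named after their values were seen because they complete the count. Wtip gave 8.58, 8.57, 8.48 and 8.66 in cells and 10.80, 10.84, 10.91 and 10.91 in exosomes. All 4 exosome values lay far above the cell values, and Wtip rose 4.90-fold (log2 difference 2.29 ± 0.07 SE, limma adjusted p = 4.09e-08). Limd1 gave 9.08, 8.89, 9.02 and 8.82 in cells and 10.33, 10.37, 10.49 and 10.49 in exosomes, a 2.77-fold rise (1.47 ± 0.08 SE). Ajuba gave 8.95, 8.74, 8.71 and 8.91 in cells and 10.16, 10.23, 10.27 and 10.23 in exosomes, a 2.63-fold rise (1.39 ± 0.08 SE). The groups overlapped for none of these 3 genes, and each was called higher under all 4 scalings. Among genes of like cell level, 7.11% around Wtip, 6.91% around Limd1 and 7.52% around Ajuba were called higher, so rises were uncommon at their level. Of the 11 measured Argonaute partners 6 were lower. Among genes of like cell level around each of these 6, 86.3% to 88.5% were called lower, so falls were common at their level. Of the 6, Tsnax was called higher after quantile normalization (0.37) and cyclic loess (0.42). Tsn also turned positive in both (0.20 and 0.43), with a call only after cyclic loess. Fmr1, an RNA-binding protein found with silencing complexes, fell the most. It was above background on 1 of 4 exosome arrays and was at least 6.11-fold lower against the exosome threshold (measured means 9.11 and 6.21, limma adjusted p = 2.94e-07).

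Silencing effectors, which act after Argonaute has bound, fell in 6 of 7 cases with a median of -1.63. Of genes within 0.25 of the cell level of each, 85.4% to 96.8% were called lower. One of the 6, Pan3, a subunit of a deadenylase, was called higher after quantile normalization (0.73) and cyclic loess (0.85). Tnrc6c, the remaining GW182 gene, fell the most, by 5.80-fold (log2 difference -2.54 ± 0.29 SE, limma adjusted p = 6.41e-05). It ran from 9.11 to 9.49 in cells, and in exosomes it gave 6.98, 6.93, 5.77 and 7.14, with replicate 3 below background. Across the 3 GW182 genes the log2 differences were thus 0.98 for Tnrc6b, -0.59 for Tnrc6a and -2.54 for Tnrc6c. Pabpc1, the poly(A)-binding protein that GW182 proteins contact, was the 1 effector not called (-0.08, interval -0.23 to 0.06), and it turned positive after quantile normalization (0.32) and cyclic loess (0.42) and negative on background centring (-0.68), with a call in each.

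Of 3 measured genes that control let-7 precursors, 2 fell, Tut7 and Dis3l2. Among genes of like cell level, 87.1% around Tut7 and 87.7% around Dis3l2 were called lower, so falls were common at their level. Lin28a was not called (0.23), and it was above background on only 2 cell arrays and on no exosome array. Dis3l2, the exonuclease that destroys tailed let-7 precursors, was above background in cells and on no exosome array, at least 4.65-fold lower (measured means 8.71 and 6.07, limma adjusted p = 3.66e-08). Piwil1, Piwil2 and Piwil4, the germ cell relatives of the Argonautes, were above background in neither group. None of these 3 was called by limma, with 1 at an unadjusted p below 0.05, and their median difference was 0.13.

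**Figure D5:**
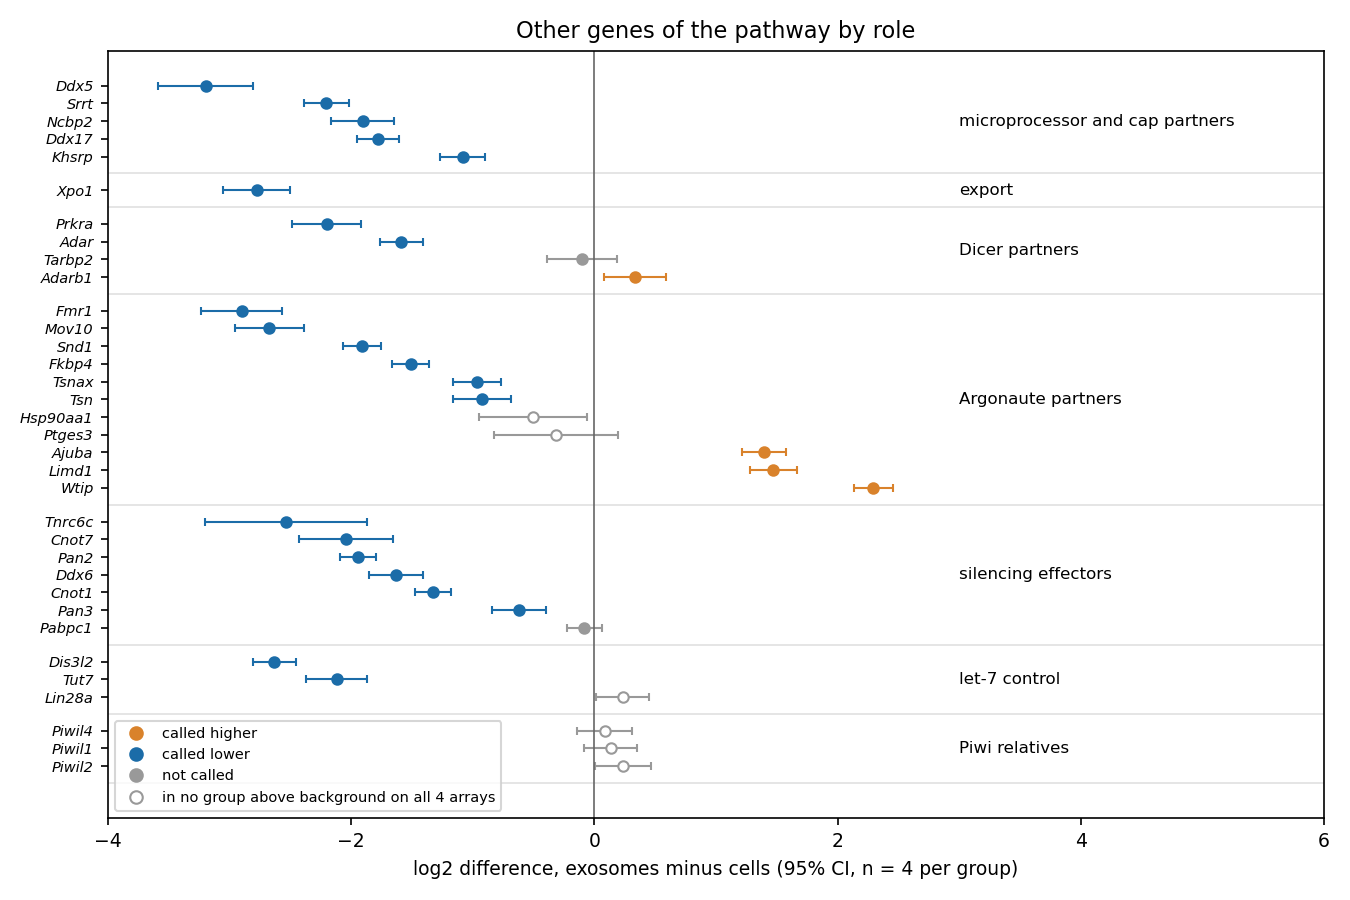
Log2 difference between exosomes and cells for 34 other genes of the pathway, grouped by role (95% confidence intervals, n = 4 arrays per group), with calls higher in orange, calls lower in blue and open points for genes above background on all 4 arrays of neither group. Wtip, Limd1 and Ajuba stand to the right of 0, from 1.39 to 2.29, while the 5 partners of the microprocessor and cap lie to the left.

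By the smallest root mean square difference over the 8 arrays, the genes whose values were nearest to those of Ago2 were Nek9 (0.15), Hipk2 (0.15) and Prrc2b (0.19). Their log2 differences were 1.83, 1.42 and 1.98. Nearest to Xpo5 were Camk2d (0.09), Sgip1 (0.10) and Car13 (0.10), with differences of -2.49, -2.37 and -2.39. These distances describe likeness of values on the same 8 arrays.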

How the data were processed

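Gene expression was measured in 4 samples of B16F0 cells and 4 of their exosomes. The deposited values are log2 values of transcript clusters, made by the authors with Affymetrix Expression Console and RMA, which corrects background, normalizes and summarizes probes, on genome build mm8, per the submitters' processing notes. The sources used here do not give versions or how exosomes were isolated. Symbols came from the platform table: 14996 of 23332 clusters had 1 symbol, 1019 several and 7317 none here. All 10 members matched a RefSeq table of GRCm38.p6, used only for names and gene neighbours.

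Groups were compared with limma 3.58.1 in R 4.3.3 (lmFit and eBayes, two-sided, no filter). Each fold is 2 raised to the difference of the group means. A gene on no exosome array above background was given as a bound, its cell mean against the mean exosome threshold. Fmr1, above it on 1 array, was bounded by the higher of its value and the threshold per array. The self-test ran on simulated data. Replicate numbers were not used as a block, since deviations of arrays that share a number correlated between -0.055 and 0.0013. No 2 arrays held identical values. Of the pathway list, the rule named the largest called rise and fall per role. Tarbp2, Adar, Limd1, Ajuba, Tsn, Tsnax, Ncbp2, Khsrp, Pan3, Pabpc1, Lin28a, Tut7, Hsp90aa1 and the 3 Piwi genes were named after their values were seen. The members and lists were chosen with earlier results of these data known. Alternatives were other scalings, a filter on dim signals, other priors, array weights, the replicate block, a stricter threshold, other background rules, the mean over clusters and leaving out each array. Figures were drawn with matplotlib 3.10.9.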

Additional observations from a re-analysis of the deposited data

Results flagged for a closer look

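In 3 of 20 gene groups checked, 1 array stood apart from the other 3, with a gap to its neighbour, as a share of the group's range, beyond Dixon's 95% critical value for 4 values. Chance gives about 1 such group in 20. For Ago1 in exosomes it was replicate 2, at 9.13 beside 9.00 to 9.03, a gap of 0.83 of the range. For Ago3 in cells it was replicate 1, at 7.83 beside 7.56 to 7.60 (gap 0.842). For Tnrc6b in exosomes it was replicate 1, at 10.21 beside 10.43 to 10.44 (gap 0.939).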

How the results depend on the processing

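Counts of called members ran from 7 to 9 over 18 alternatives, those of the pathway list from 25 to 33 and those of all clusters from 10675 to 17732, all within 1.5 times the main counts. Ago2, Tnrc6b and Xpo5 kept direction and call under all 18 alternatives run for each. Ago3 gained a call as lower on background centring (-0.95) and without exosomes replicate 3 (-0.47). Ago4 was called higher without exosomes replicate 3 (0.32) and on centring each array's median (0.50), and lower on background centring (-0.38). It was not above background on any array, so these calls are not read as changes of the gene. Signs turned after quantile normalization for Dgcr8 (0.24), Ago3 (0.92) and Tnrc6a (0.77), after cyclic loess for Dgcr8 (0.29), Ago3 (1.01) and Tnrc6a (0.88), and on background centring for Ago1 (-0.40) and Ago4 (-0.38). The differences of Ago1 minus Ago4 and Ago3 minus Ago4 turned to 1.23 and 0.72 after quantile normalization and to 1.54 and 0.93 after cyclic loess, where 9 of 9 pairs passed (adjusted p = 0.0286, exact test), but Ago4 was not above background, so these are no differences between members. Leaving out 1 array gave Ago1 minus Ago4 values from -0.114 to 0.034, and 0 of 9 pairs in the exact test, which cannot pass with 3 arrays against 4; there the 6 pairs without Ago4 kept their direction. Centring on each array's median, chosen after seeing the data, ended the call of Tnrc6a (-0.31, adjusted p = 0.0594). With the replicate block, 7 members, 25 pathway genes and 13227 clusters were called; Ago1 was the member that lost its call. At the 99th percentile of background genes, background was exceeded by 9 members on the cell arrays and 7 on the exosome arrays.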

Other observations

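One further cluster carried the symbols Mid2 and Ago2 together and was counted under neither gene. Its values ran from 8.31 to 8.59 in cells and from 6.19 to 6.34 in exosomes, where it was not above background on any array. It was at least 3.90-fold lower against the exosome threshold (measured means 8.45 and 6.26, adjusted p = 7.31e-08 in limma), opposite to the cluster of Ago2 alone. Hsp90aa1, which encodes a chaperone that cells make in quantity, had a cluster that was not above background on any array, with means of 4.61 in cells and 4.10 in exosomes.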
